A study of Mus musculus with 16 samples.

Results

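The genes described here are 10 transporters that carry bile acids and other constituents of bile across the membranes of the liver cell. They are the uptake carriers Slc10a1, Slco1b2, Slco1a1 and Slc10a2, the exporters of the canalicular membrane Abcb11, Abcb4 and Abcc2, and Abcc3, Abcc4 and Slc51b, which export from the cell to the blood. They were chosen by gene symbol out of the 24082 genes of the liver RNA table, and each symbol stood for 1 gene. All 10 reached a value of 10 or more in 4 or more of the 16 libraries and were tested together with the other genes that met this filter, 12537 in all. Slc51b met it only because its 4 EtOH control libraries, where it is highest, were above 10. Its entry into the test was therefore not independent of its differences from that group.

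The livers came from female C57Bl6/J mice of 9 to 11 weeks of age. Mice of the Chronic Ethanol Diet had free access to a Lieber-DeCarli liquid diet in which ethanol was raised in steps to 6% (vol/vol) over 25 days, and mice of the Pair diet received the liquid diet with maltose dextrin in place of the ethanol. Within each diet, mice received vehicle or iodomethylcholine (IMC), an inhibitor of the gut bacterial enzyme that makes trimethylamine from choline, at 0.06% (wt/wt) of the diet. The pair-fed groups were Pair control and Pair IMC, the ethanol-fed groups were EtOH control and EtOH IMC, and each had 4 libraries. The labels name no transgene or deleted gene, and which mice shared a cage is not given in the labels. Intake of the liquid diet was not analysed here, so that a direct effect of IMC and an effect of the amount of ethanol diet taken cannot be told apart.

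Bile acids are made from cholesterol in hepatocytes, pumped into the canaliculus, stored, released into the gut, and largely taken back up in the ileum and returned to the liver in the portal blood. Hepatocytes clear them from that blood through sodium-dependent (Slc10a1, NTCP) and sodium-independent (the Slco or OATP family) carriers, and secrete them into bile through the bile salt export pump (Abcb11). When canalicular secretion is impaired, the liver is known to shift towards export across the sinusoidal membrane through Abcc3, Abcc4 and the Slc51a/Slc51b heterodimer. The farnesoid X receptor (FXR, Nr1h4) senses bile acids and is a known activator of Abcb11 and Slc51b, whereas the oxidant-responsive factor NRF2 (Nfe2l2) is a known activator of several Abcc genes.

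The sequences just before the start sites of 4 of these promoters are shown because they hold the letters of the response elements of these factors. A RefSeq promoter sequence (GRCm38.p6, the same assembly as mm10) was given for 9 of the 10 genes, with 11 start sites; Abcc3 had no entry. Each window ran from 250 bases before to 50 bases after the start site and was searched on both strands. The motifs were the core of the antioxidant response element that NRF2 binds, TGACNNNGC, and the IR-1 element that FXR binds, which is AGGTCA, any 1 base and TGACCT, with up to 2 mismatches allowed. Below, the 250 bases before the start site are written 5' to 3' on the strand of the gene, and capitals mark a motif match. The windows are Abcb11 at chr2:69342617-69342866 (minus strand), Slco1b2 at chr6:141629268-141629517 (plus strand), Abcc4 at its upstream start site at chr14:118706220-118706469 (minus strand) and Abcc4 at its downstream start site at chr14:118676932-118677181 (minus strand).
Abcb11: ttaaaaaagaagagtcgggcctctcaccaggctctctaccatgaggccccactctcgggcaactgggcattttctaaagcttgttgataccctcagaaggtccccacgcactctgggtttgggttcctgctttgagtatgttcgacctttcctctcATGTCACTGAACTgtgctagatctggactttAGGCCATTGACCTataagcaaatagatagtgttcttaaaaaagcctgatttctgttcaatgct
Slco1b2: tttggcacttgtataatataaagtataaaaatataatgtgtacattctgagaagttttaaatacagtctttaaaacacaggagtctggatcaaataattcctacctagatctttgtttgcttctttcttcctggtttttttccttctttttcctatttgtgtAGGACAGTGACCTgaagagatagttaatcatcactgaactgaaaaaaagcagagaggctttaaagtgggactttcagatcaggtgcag
Abcc4, upstream start: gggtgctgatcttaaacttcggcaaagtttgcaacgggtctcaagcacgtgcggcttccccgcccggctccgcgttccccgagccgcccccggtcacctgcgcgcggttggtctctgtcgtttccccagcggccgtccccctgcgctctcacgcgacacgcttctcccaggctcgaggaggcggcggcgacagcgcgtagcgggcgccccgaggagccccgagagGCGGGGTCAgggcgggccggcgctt
Abcc4, downstream start: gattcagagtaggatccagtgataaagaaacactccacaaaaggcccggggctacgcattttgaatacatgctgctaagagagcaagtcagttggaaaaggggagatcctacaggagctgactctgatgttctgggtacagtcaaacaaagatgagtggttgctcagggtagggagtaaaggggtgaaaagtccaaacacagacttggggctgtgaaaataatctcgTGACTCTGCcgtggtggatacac
In Abcb11 an IR-1 match with 1 mismatch, AGGCCATTGACCT, began at position -63 from the start site, and another with 2 mismatches, ATGTCACTGAACT, at -94. In Slco1b2 a match with 1 mismatch, AGGACAGTGACCT, began at -88. An IR-1 match with at most 1 mismatch was present in 0.0822% of 32841 mouse promoter windows of this length, and with at most 2 mismatches in 1.14%. Cores of the antioxidant response element were present at -25 in the upstream Abcc4 promoter (GCGGGGTCA, on the opposite strand), at -23 in the downstream one (TGACTCTGC) and at -98 in Abcc2 (TGACATAGC). They were present in 12.4% of all windows. No IR-1 or antioxidant response element core matched in the windows of Slc10a1, Slc10a2, Slco1a1, Abcb4 or Slc51b. A match describes these letters only and does not show that a factor was bound.

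The 16 libraries held between 9632659 and 12601199 reads on genes. In the deposited values the median gene was 1.14-fold higher in the ethanol-fed groups, and the authors may have scaled them within each diet. All libraries were therefore rescaled by a median ratio over all 16, and "value" below is a rescaled read count. The hepatocyte markers Alb, Apoa1, Ttr, Serpina1c, Tat and Cps1 were all tested and none of the 6 passed the test in any of the comparisons. Library numbers were not balanced: numbers 1 to 8 held Pair IMC and EtOH control, and numbers 9 to 16 held Pair control and EtOH IMC. Low and high library numbers therefore cannot be told apart from IMC within a diet, from ethanol within a treatment, or from a difference of the IMC effect between diets. Of the comparisons made here, only the average IMC effect of the 2 diets is balanced over them. The ethanol effect averaged over vehicle and IMC would be balanced as well, but it was not fitted. No label says that low and high numbers were processed separately. In a bulk liver sample, fewer cells of a type and less RNA per cell cannot be told apart. The p-values below measure the spread between these libraries, each taken as 1 mouse.

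Levels can be compared between genes only per length, here as the value per kb of merged exon in the GENCODE annotation, averaged over 16 libraries. Slc10a1 stood highest at 4046 per kb, followed by Slco1b2 at 3692, Abcb11 at 2617 and Abcc2 at 1280. Abcc3 at 618 and Abcb4 at 435 formed a middle range. Abcc4 at 54.0, Slc10a2 at 22.7, Slco1a1 at 20.2 and Slc51b at 9.91 were scarce. Some neighbours in this order changed places between libraries, in part by group. Slc10a1 was above Slco1b2 in 9 of 16 libraries, Abcc3 above Abcb4 in 10, Abcc4 above Slc10a2 in 8, Slc10a2 above Slco1a1 in 8, and Slco1a1 above Slc51b in 10. Abcc4 was below Slc10a2 in every pair-fed library and above it in every ethanol-fed library. Abcc3 was above Abcb4 in every ethanol-fed library, but below it in every Pair IMC library. Slc10a2 was mostly above Slco1a1 in pair-fed libraries and mostly below it in ethanol-fed libraries. Slco1a1 was below Slc51b in every EtOH control library and above it in every library of the IMC groups. The other neighbours kept their order in 16 of 16 libraries.

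**Figure D1:**
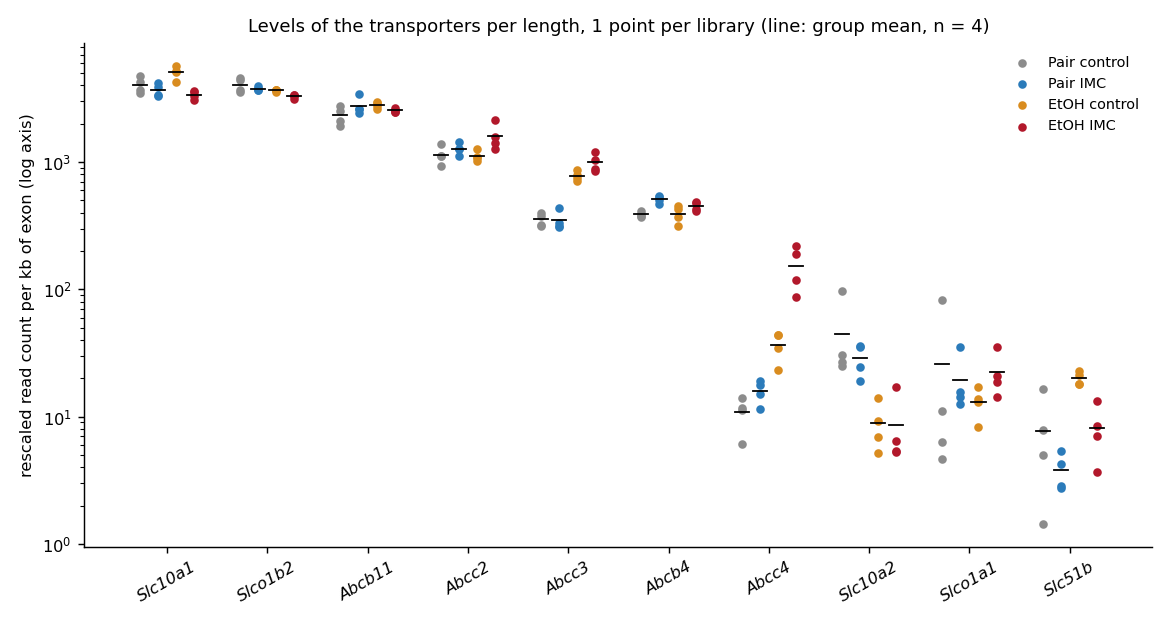
Value per kb of merged exon on a log axis for each transporter (horizontal axis, ordered by the mean of 16 libraries), with 1 point per library, colours for the 4 groups and a black line for the group mean. The major uptake carriers and Abcb11 stayed between 1936 and 5729 per kb in every library, whereas Abcc4 ranged from 6.06 to 219.

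In EtOH IMC against EtOH control, Abcc4 and Abcc2 rose and the uptake carrier Slc10a1 fell, by limma with Benjamini-Hochberg adjustment over all genes tested. Of all genes, 10.4% rose and 11.1% fell in this comparison. In Pair IMC against Pair control only Abcb4 passed the test, rising, where 4.32% of all genes rose and 5.17% fell. Averaged over both diets, Abcc4, Abcb4 and Abcc2 rose and Slc10a1 fell, where 14.1% of all genes rose and 14% fell. The shares of transporters called, 3 of 10, 1 of 10 and 4 of 10, differ from these backgrounds by few genes, and nothing particular to transporters is read from them.

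With ethanol, Abcc3 and Abcc4 rose and Slc10a2 fell in EtOH control against Pair control and again in EtOH IMC against Pair IMC. Slc51b was past the threshold in control mice too, but it entered the test through the group where it is high, and without the filter it missed the threshold (adjusted p = 0.0509). Of all genes, 6.33% rose and 5.54% fell with ethanol in control mice, and 7.86% rose and 8.57% fell in IMC-treated mice. In the first of these contrasts the ethanol libraries have the low numbers and in the second they have the high numbers, and Abcc3, Abcc4 and Slc10a2 kept their direction in both.

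No transporter differed in its IMC effect between diets by limma with an adjusted p below 0.05, where 0.319% of all genes had a more positive effect and 0.79% a more negative effect under ethanol. At an unadjusted p below 0.05, 4 of 10 did (Abcc4, Slc10a1, Abcb11 and Abcc3), against 15.3% of all genes. DESeq2 on the whole reads called 1 of them, Abcc4, and edgeR's quasi-likelihood test called 0. The IMC effects in pair-fed and in ethanol-fed mice are therefore not shown to differ for any transporter by limma on all libraries. For Abcc4 the difference passed in 3 of 27 alternatives, which are given with its values below.

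**Figure D2:**
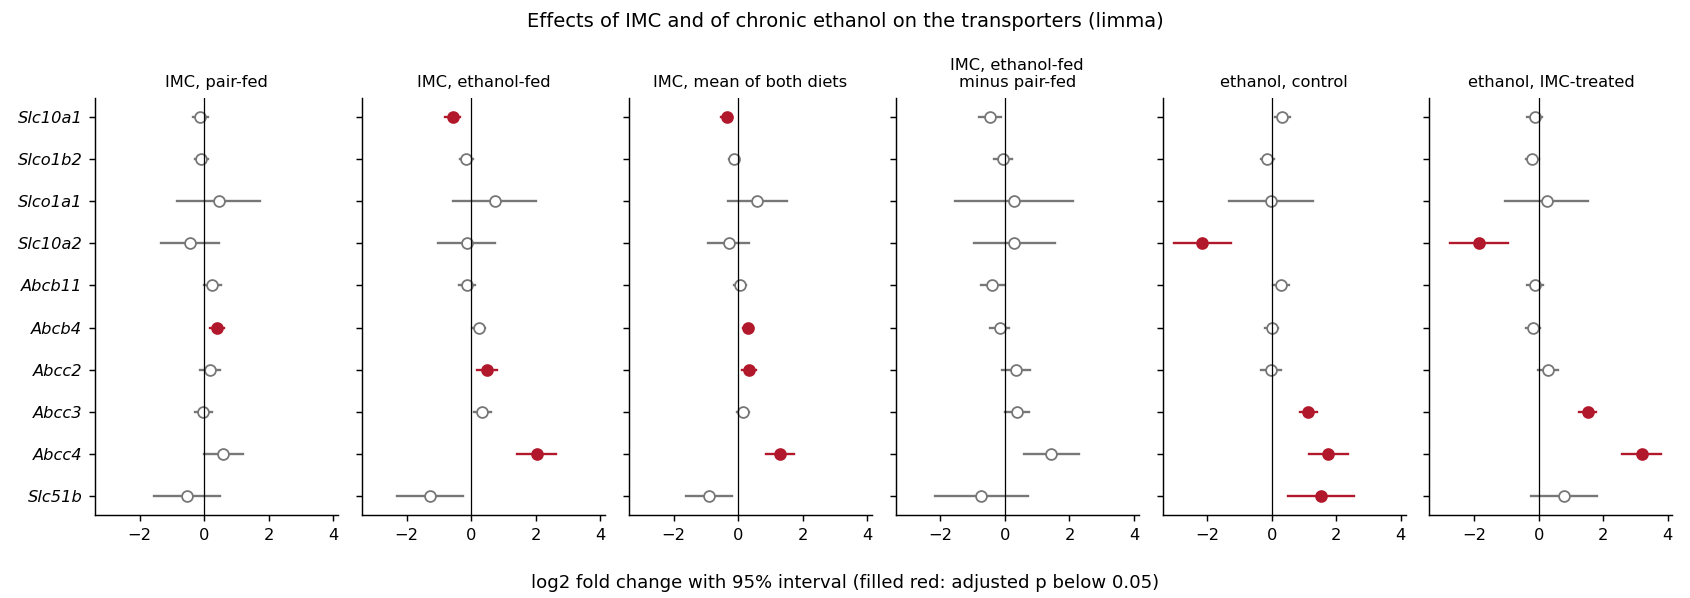
Log2 fold change of each transporter (rows, by role) in 6 comparisons (panels), with its 95% interval from limma; filled red points have an adjusted p below 0.05. The intervals of Abcc4 and Abcc3 lie to the right of 0 and that of Slc10a2 to the left of 0 in both ethanol panels.

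Slc10a1 (ENSMUSG00000021135, chr12:80953183-80968705, minus strand, mm10) encodes NTCP, the main sodium-dependent carrier of conjugated bile acids into hepatocytes. Its values were 8039, 7692, 10351 and 9385 in Pair control (8867 ± 1229.6, SD, n = 4), and 7322, 7426, 8613 and 9240.3 in Pair IMC (8150.2 ± 933). They were 11407, 11163, 9365 and 12598 in EtOH control (11133 ± 1335) and 7279, 6804, 7747 and 7912 in EtOH IMC (7435 ± 499). The highest EtOH IMC library lay below the lowest EtOH control library, while the pair-fed groups overlapped. With IMC, Slc10a1 fell by 0.58 on the log2 scale in ethanol-fed mice (SE 0.12, 1.49-fold, limma adjusted p = 0.00227) and was -0.12 in pair-fed mice (SE 0.12, adjusted p = 0.558). The difference between these effects was -0.46 (SE 0.16, unadjusted p = 0.0119, limma adjusted p = 0.182). With ethanol it was 0.33 higher on the log2 scale in control mice, which did not pass the test (limma adjusted p = 0.0698), and -0.13 in IMC-treated mice (adjusted p = 0.485). Averaged over both diets it fell by 0.35 with IMC (limma adjusted p = 0.00439). The fall under ethanol passed the test in 28 of 28 alternative analyses (adjusted p up to 0.0105), and the ethanol difference in control mice in 4 of 28 (adjusted p from 0.00368 to 0.198).

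Slco1b2 (ENSMUSG00000030236, chr6:141629518-141686646, plus strand) encodes the liver's major OATP, which takes up bile acids, bilirubin and drugs without sodium. Group values were 19994 ± 2490.5 in Pair control, 18627 ± 677 in Pair IMC, and under ethanol 18008 ± 239 in EtOH control and 16165 ± 548 in EtOH IMC (SD, n = 4 each). EtOH IMC libraries, between 15353 and 16498, all lay below the EtOH control libraries, between 17661 and 18197, but the log2 difference of -0.16 did not pass the test (95% interval -0.36 to 0.04, limma adjusted p = 0.257). The effects on Slco1b2 within a diet or treatment ran from -0.20 to -0.09 on the log2 scale, and none passed. The largest was that of ethanol in IMC-treated mice (95% interval -0.41 to -0.004, limma adjusted p = 0.155). There every EtOH IMC library lay below every Pair IMC library. Only the ethanol effect in IMC-treated mice passed in 1 of 28 alternatives (DESeq2, adjusted p = 0.0471, of a range up to 0.936).

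Slco1a1 (ENSMUSG00000041698, chr6:141907282-141946962, minus strand) encodes an OATP that is known to be far more abundant in male than in female mouse liver. It was scarce and uneven in these females, with Pair control values of 24.5, 33.3, 58.7 and 434 and Pair IMC values of 186, 81.8, 66.2 and 75.6. EtOH control values were 90.6, 43.8, 72.9 and 68.6, and EtOH IMC values were 110, 186, 75.7 and 99.3. Library 16 of Pair control stood apart from every other library. All groups overlapped, and the intervals were wide: the IMC effect in pair-fed mice was 0.45 on the log2 scale (95% interval -0.84 to 1.74). Without library 16 it was 1.34 (limma adjusted p = 0.0321, against 0.987 at most in the other alternatives), and on whole reads edgeR gave it as -0.43 with all libraries kept. No direction can therefore be given for this effect. In ethanol-fed mice the IMC effect was 0.73 (95% interval -0.56 to 2.02, limma adjusted p = 0.421) and lay between 0.49 and 0.91 in 28 alternatives, with 0 past the threshold of the 27 that gave an adjusted p. Averaged over both diets it was 0.59 (limma adjusted p = 0.325), between 0.14 and 1.03 in 27 alternatives, of which 1 passed, that without library 16 (1.03, limma adjusted p = 0.00573). Slco1a4, Slco1a5 and Slco1a6 are close relatives with which reads could be shared, and how shared reads were counted is not given in the sources used here.

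Slc10a2 (ENSMUSG00000023073, chr8:5083219-5105351, minus strand) encodes ASBT, the sodium-dependent carrier of the ileum, which cholangiocytes also carry to take bile acids back from bile. Its values were 111, 401, 104 and 127 in Pair control and 147, 78.9, 101 and 149.9 in Pair IMC. They were 21.5, 28.9, 58.5 and 38.3 in EtOH control and 22.4, 71.2, 21.9 and 26.5 in EtOH IMC. Every ethanol-fed library lay below every pair-fed library. With ethanol Slc10a2 fell by 2.15 on the log2 scale in control mice (SE 0.42, 4.44-fold, limma adjusted p = 0.00405) and fell by 1.86 in IMC-treated mice (SE 0.42, 3.62-fold, limma adjusted p = 0.00715). Without library 12, the highest, it fell by 1.70 in control mice (adjusted p = 0.00961). The fall in control mice passed in 27 of 27 alternatives and the fall in IMC-treated mice in 26 of 27, the exception being edgeR on whole reads without library 15 (adjusted p = 0.0614). IMC left it without a detectable difference, at -0.44 in pair-fed mice (95% interval -1.33 to 0.46) and -0.14 in ethanol-fed mice (95% interval -1.04 to 0.75).

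The cell types that could supply Slc10a2 transcripts were looked at through their markers. The cholangiocyte markers (Krt19, Krt7, Epcam, Sox9, Spp1 and Cftr) summed to 709.9 to 1222 in Pair control, 616 to 699.5 in Pair IMC, and under ethanol to 598 to 848 in EtOH control and 555 to 714 in EtOH IMC. Most of each sum was Spp1, which ranged from 473 to 738. Of the 5 tested, none passed the test with ethanol, and Krt7 fell with IMC in pair-fed mice. With ethanol in control mice Krt19 was -1.99 on the log2 scale (SE 0.83, limma adjusted p = 0.126), Krt7 -1.18 (adjusted p = 0.0918) and Epcam -0.82 (adjusted p = 0.222), and in IMC-treated mice Krt19 was 0.81 (adjusted p = 0.546), where Slc10a2 was lower in both. Library 12, with the highest Slc10a2 value, had the highest cholangiocyte sum (1222) and the highest Krt19 value (279), and in EtOH IMC library 11 was highest in Slc10a2 (71.2) and in Krt19 (131). In Pair IMC library 8 was highest in Slc10a2 (149.9) and lowest in Krt19 (12.6), and in EtOH control Slc10a2 was highest in library 5 and Krt19 in library 3. Of the small intestine markers, Fabp6, Sis and Lct were at or near 0, between 0 and 4.24 in every library. Vil1 was between 9.16 and 27.4 in Pair control, with its highest value in library 12. It was between 1.26 and 7.02 in Pair IMC, 0.897 and 12.8 in EtOH control, and 1.99 and 11.3 in EtOH IMC. With ethanol Vil1 was -1.63 on the log2 scale in control mice (limma adjusted p = 0.122) and 0.45 in IMC-treated mice (limma adjusted p = 0.695). The enterocyte marker Fabp2, also known in liver cells, summed with the others of its list to 963 to 1088 in Pair control, 453 to 620.2 in Pair IMC, and under ethanol to 922 to 1041 in EtOH control and 188 to 1256 in EtOH IMC, and Fabp2 fell by 1.401 on the log2 scale with IMC in ethanol-fed mice (limma adjusted p = 0.0121). The part of the cholangiocyte and small intestine markers in the Slc10a2 values was not tested.

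**Figure D3:**
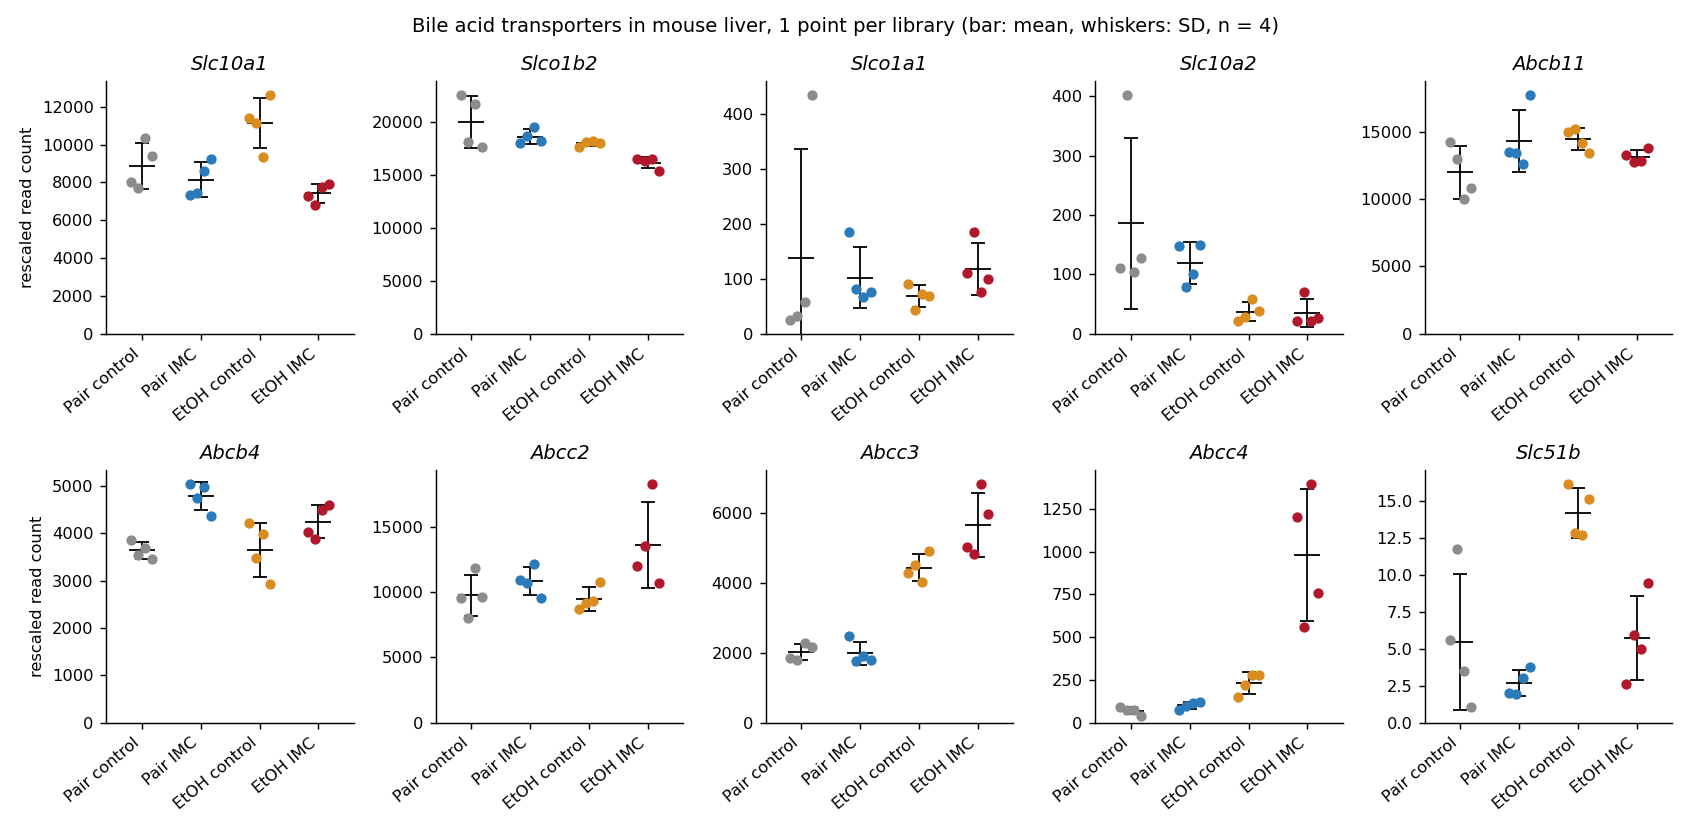
Value (rescaled read count, vertical axis from 0) of each transporter in each of the 16 libraries, with 1 point per library, a bar for the group mean and whiskers for the SD (n = 4). The lower whisker of Slco1a1 in Pair control ends at the axis because the SD (198) exceeds the mean (138). Abcc4 is highest in EtOH IMC, Abcc3 is high in both ethanol-fed groups and Slc10a2 is low in both.

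Abcb11 (ENSMUSG00000027048, chr2:69238282-69342616, minus strand) encodes the bile salt export pump, the rate-limiting step of bile acid secretion. Group values were 12001 ± 1963 in Pair control, 14303 ± 2295 in Pair IMC, and under ethanol 14428 ± 828 in EtOH control and 13134 ± 465 in EtOH IMC (SD, n = 4 each). The pair-fed groups overlapped, from 9965 to 14235 in Pair control and from 12594 to 17689.5 in Pair IMC, and so did the ethanol-fed groups. No effect passed the test. IMC gave 0.25 in pair-fed mice (95% interval 0.00 to 0.51, limma adjusted p = 0.194) and -0.13 in ethanol-fed mice (95% interval -0.39 to 0.12). Ethanol gave 0.28 in control mice (limma adjusted p = 0.142). On the deposited scale this ethanol effect was 0.47 (limma adjusted p = 0.00978), the only 1 of 28 alternatives to pass. Its exons share 136 and 19 bases with the other-strand genes Gm13613 and Gm13614, which had no rows of their own.

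Abcb4 (ENSMUSG00000042476, chr5:8893717-8959231, plus strand) encodes the floppase that moves phosphatidylcholine into bile, where the phospholipid buffers the detergent action of bile acids. Its values were 3859.7, 3541, 3696 and 3451 in Pair control (3637 ± 180, SD, n = 4) and 5041, 4752, 4971 and 4373 in Pair IMC (4784 ± 301). They were 4224, 3474, 3979.7 and 2934 in EtOH control (3653 ± 572) and 4028, 3885, 4486 and 4594 in EtOH IMC (4248 ± 345). The pair-fed groups did not overlap, and the ethanol-fed groups did. With IMC Abcb4 rose by 0.39 on the log2 scale in pair-fed mice (SE 0.10, 1.31-fold, limma adjusted p = 0.022). The call was lost, at adjusted p between 0.055 and 0.0653, when library 2, 4 or 6 was left out, and held in the other 25 of 28 alternatives. In ethanol-fed mice the effect was 0.23 (SE 0.10, limma adjusted p = 0.117), and the difference between diets was -0.17 (95% interval -0.47 to 0.14). Averaged over both diets Abcb4 rose by 0.31 (SE 0.07, limma adjusted p = 0.00382). Ethanol moved it by -0.01 in control mice (95% interval -0.22 to 0.21).

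Abcc2 (ENSMUSG00000025194, chr19:43782192-43840740, plus strand) encodes MRP2, which exports glutathione and glucuronide conjugates, bilirubin diglucuronide among them, into bile. Its values were 9529, 7997, 11823 and 9603 in Pair control, 10899.6, 10723, 12182 and 9580.4 in Pair IMC and 8663, 9145, 9284 and 10771 in EtOH control. In EtOH IMC they were 11968, 13507, 18275 and 10728. Library 13 was the highest of all 16, and library 15 fell just below the highest EtOH control library, so that the ethanol-fed groups overlapped. With IMC Abcc2 rose by 0.50 on the log2 scale in ethanol-fed mice (SE 0.15, 1.41-fold, limma adjusted p = 0.0227). This call was lost without library 1 (adjusted p = 0.0627), 3 (0.0524) or 13 (0.0798, with a rise of 0.35) and held in the other 25 of 28 alternatives. In pair-fed mice the effect was 0.16 (95% interval -0.15 to 0.47), and averaged over both diets the rise was 0.33 (limma adjusted p = 0.0239), which was lost without library 6 (adjusted p = 0.0535).

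Abcc3 (ENSMUSG00000020865, chr11:94343295-94392997, minus strand) encodes MRP3, a basolateral exporter of glucuronides and bile acids. Its values were 1840.1, 1791, 2282 and 2165 in Pair control and 2475, 1763, 1909 and 1779 in Pair IMC. They were 4293, 4498, 4010.3 and 4923 in EtOH control and 5034, 4819, 6828 and 5957 in EtOH IMC. Every ethanol-fed library lay above every pair-fed library. With ethanol Abcc3 rose by 1.14 on the log2 scale in control mice (SE 0.13, 2.20-fold, limma adjusted p = 5.47e-05) and by 1.51 in IMC-treated mice (SE 0.13, 2.86-fold, limma adjusted p = 1.18e-06). The IMC effect was -0.03 in pair-fed mice (95% interval -0.30 to 0.23) and 0.34 in ethanol-fed mice (SE 0.13), where it did not pass the test (limma adjusted p = 0.0614). DESeq2 (adjusted p = 0.0394) and quantile normalization (limma adjusted p = 0.00893) put the latter past the threshold, as did 4 of 28 alternatives in all (adjusted p from 0.00893 to 0.191).

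Abcc4 (ENSMUSG00000032849, chr14:118482692-118706219, minus strand) encodes MRP4, a basolateral pump that exports bile acids together with glutathione, and also cyclic nucleotides. Its values were 89.2, 72.4, 75.1 and 38.7 in Pair control (68.8 ± 21.4, SD, n = 4) and 73.2, 96.5, 113 and 122 in Pair IMC (101 ± 21.5). They were 148, 219, 279.8 and 279.4 in EtOH control (232 ± 62.6) and 1202, 558, 1396 and 760.2 in EtOH IMC (979 ± 387). The pair-fed groups overlapped, EtOH control lay above both, and EtOH IMC lay above EtOH control without overlap.

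With ethanol Abcc4 rose by 1.75 on the log2 scale in control mice (SE 0.29, 3.37-fold, limma adjusted p = 0.00145) and by 3.19 in IMC-treated mice (SE 0.29, 9.16-fold, limma adjusted p = 2.74e-06). With IMC it rose by 2.03 in ethanol-fed mice (SE 0.29, 4.08-fold, limma adjusted p = 0.000157), and the effect in pair-fed mice was 0.59, which did not pass the test (95% interval -0.02 to 1.20, limma adjusted p = 0.212). The difference between the IMC effects was 1.44 (SE 0.41, unadjusted p = 0.00249, limma adjusted p = 0.101). It passed with DESeq2 (1.52, adjusted p = 0.0113), and with limma when library 16 of Pair control (1.69, adjusted p = 0.0422) or library 11 of EtOH IMC (1.68, adjusted p = 0.042) was left out. These 3 were the only ones of 27 alternatives to pass (adjusted p up to 0.18). Averaged over both diets, which is balanced over library numbers, Abcc4 rose by 1.31 (SE 0.20, limma adjusted p = 0.000201).

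Slc51b (ENSMUSG00000053862, chr9:65412714-65422955, minus strand) encodes the beta subunit of the heterodimeric carrier that releases bile acids to the blood. It rested on few reads, 1 to 18 per library. Its values were 5.57, 11.7, 3.52 and 1.02 in Pair control, 2.03, 1.95, 3.01 and 3.78 in Pair IMC. Under ethanol they were 16.1, 12.8, 12.7 and 15.1 in EtOH control and 2.58, 5.93, 4.98 and 9.45 in EtOH IMC. EtOH control stood above the other groups without overlap. With ethanol Slc51b was 1.53 higher on the log2 scale in control mice (SE 0.49, 2.88-fold, limma adjusted p = 0.0491). This call is not independent of the filter that let the gene in, and it was lost in 21 of 27 alternatives (adjusted p from 0.017 to 0.125). With IMC Slc51b was 1.27 lower on the log2 scale in ethanol-fed mice, which missed the threshold (SE 0.49, limma adjusted p = 0.0707). EtOH control is the baseline of this comparison, so this difference too is not independent of the filter. It passed with edgeR (adjusted p = 0.0393), DESeq2 (adjusted p = 0.0489) and 8 of 27 alternatives in all (adjusted p from 0.026 to 0.18). These share that baseline, and no support is read from them. Its exons share 91 bases with the other-strand gene Rasl12, whose mean value was 2.68. The partner subunit Slc51a was at or near 0, with 2 reads in all in Pair control and 2 in Pair IMC, and with 5 in EtOH IMC and 3 in EtOH control.

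The 3 transporters whose group means varied most, Abcc4, Slc10a2 and Slc51b, were each compared with all other tested genes by the root mean square difference of log2(value + 1) over the 16 libraries, each gene centred on its own mean. Closest to Abcc4 were Gstm3 (0.43 log2 units) and Gsta2 (0.64), both glutathione S-transferases, against a root mean square spread of Abcc4 itself of 1.504. Gstm3 had group means of 552 in Pair control and 1040.3 in Pair IMC, and of 2629.6 in EtOH control and 6124 in EtOH IMC. Closest to Slc10a2 were Gm33543 (0.53) and the major urinary protein gene Mup21 (0.67), against a spread of Slc10a2 of 1.19. Closest to Slc51b were Prom1 (0.45), a membrane glycoprotein, and Ccdc66 (0.49), against a spread of Slc51b of 0.95. Prom1 averaged 158 in Pair control, 110 in Pair IMC, and under ethanol 482 in EtOH control and 224 in EtOH IMC. Slc51b rested on few reads and entered the test only through EtOH control, so nothing is read from its closest genes. Library 12, where Slc10a2 and Slc51b were at their highest in Pair control, was not the highest of Pair control in either of the genes closest to Slc10a2.

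**Figure D4:**
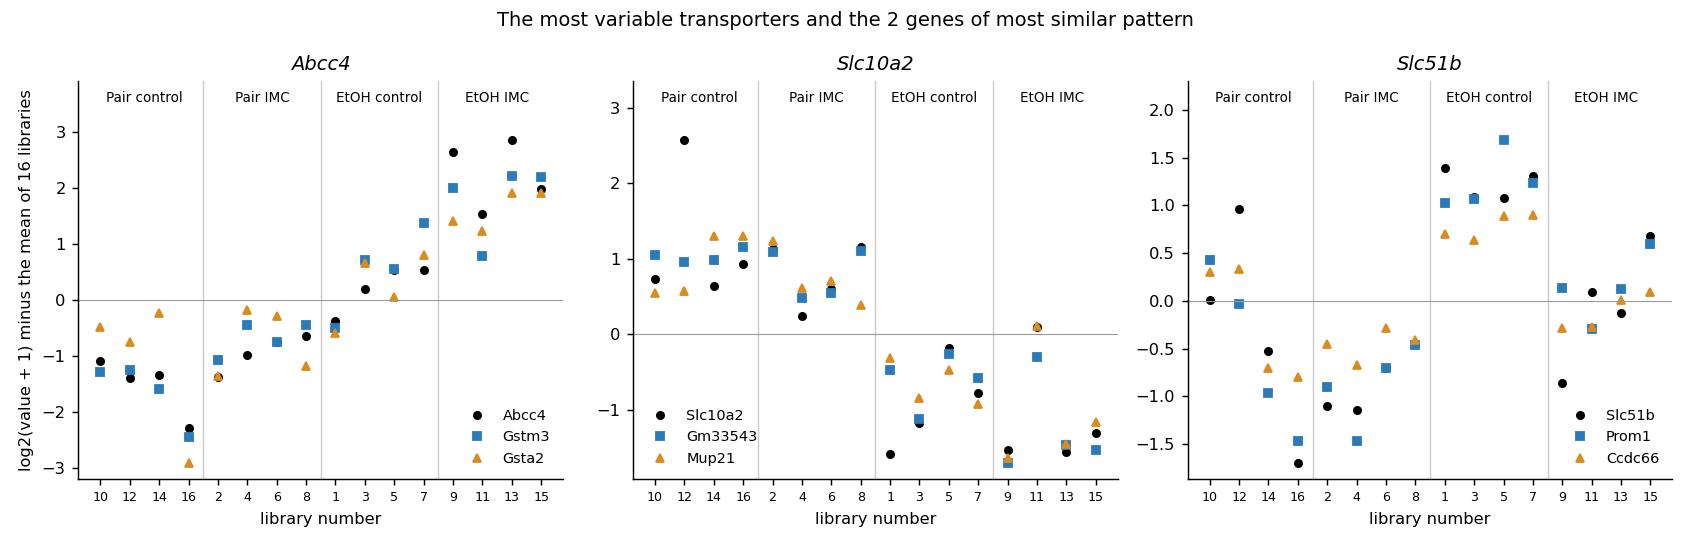
Log2(value + 1) minus the mean of 16 libraries for the transporters of most variable group means (black circles) and the 2 genes of most similar pattern (blue squares and orange triangles), by library number and group. Gstm3 follows Abcc4 at a root mean square difference of 0.43, whereas Slc10a2 in library 12 of Pair control stands above both of its closest genes.

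The NRF2 target genes listed include genes for enzymes of glutathione and quinone metabolism. With IMC, of 9 tested of 10 listed, 4 rose and 0 fell in pair-fed mice, led by Gclc (0.91) and Gstm1 (0.89 on the log2 scale), and 8 rose and 0 fell in ethanol-fed mice, led by Gsta1 (3.25) and Gstm1 (1.42). Their median log2 effect was 0.46 in pair-fed and 0.92 in ethanol-fed mice, against medians of 0.00 over all genes tested. Of all genes, 4.32% rose and 5.17% fell in pair-fed mice, and 10.4% rose and 11.1% fell in ethanol-fed mice. Averaged over both diets 9 of 9 rose, where 14.1% of all genes rose. With ethanol, 3 of the 9 rose in control mice (Gstm1, by 1.19, and Srxn1, by 1.002, among them), where 6.33% of all genes rose. In IMC-treated mice 6 rose (Gsta1, by 3.497, and Srxn1, by 1.89, among them), where 7.86% of all genes rose. None of the 9 passed the test of the difference between diets. The list median was positive in each comparison. Abcc4 was positive in each too, but its IMC effect in pair-fed mice did not pass. Abcc2 was -0.03 with ethanol in control mice, where the list median was 0.22. Abcc3 was -0.03 with IMC in pair-fed mice. Both were positive in the other comparisons. The list was not uniform. With ethanol Gclm, Hmox1 and Txnrd1 were -0.16, -0.25 and -0.04 in control mice, and Gclm and Hmox1 were -0.28 and -0.51 in IMC-treated mice. In the difference between diets Gclm and Hmox1 were -0.11 and -0.26. None of these negative effects passed the test. A part of NRF2 in the values of Abcc2, Abcc3 or Abcc4 was not tested.

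Of 17 bile acid synthesis genes, 7 fell, 3 rose and 7 did not pass with IMC under ethanol, where 11.1% of all genes fell and 10.4% rose. Cyp8b1, the sterol 12-alpha-hydroxylase that sets the share of cholic acid, fell by 2.92 (limma adjusted p = 3.6e-05). Cyp7a1, the rate-limiting enzyme, fell by 1.56 (SE 0.47, limma adjusted p = 0.0262). Its values in EtOH control, the baseline, were widely spread, from 643 to 4314. Cyp39a1, an oxysterol hydroxylase, rose by 0.56 (limma adjusted p = 0.0148) and Cyp2c70, which makes muricholic acids, by 0.48 (limma adjusted p = 0.00891). In pair-fed mice 1 of 17 rose, Cyp27a1 (0.34), and 0 fell, where 4.32% of all genes rose and 5.17% fell. With ethanol, 3 rose in control mice, Acox2 (0.62) and Akr1d1 (0.42) among them, and 1 rose and 3 fell in IMC-treated mice, Acox2 (0.62) rising and Cyp8b1 (fell by 2.34) and Cyp7a1 (fell by 2.16) among the latter. With ethanol, 6.33% of all genes rose and 5.54% fell in control mice, and 7.86% rose and 8.57% fell in IMC-treated mice. The list median with IMC under ethanol was -0.20, against 0.00 over all genes.

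Other transporters of the same membranes gave a mixed picture. Of 20 tested of 23 listed, 1 rose and 3 fell with IMC in pair-fed mice, and 2 rose and 5 fell in ethanol-fed mice. Of all genes, 4.32% rose and 5.17% fell in pair-fed mice, and 10.4% rose and 11.1% fell in ethanol-fed mice. Slco2a1, a prostaglandin carrier, rose in both (0.59 and 0.37). Atp8b1, a canalicular phospholipid flippase, rose by 0.34 in ethanol-fed mice. Abcb1a and Slco2b1 fell by 0.67 and 0.61 in pair-fed mice, and the organic anion carrier Slc22a7 and the OATP Slco1a4 fell by 1.96 and 0.76 in ethanol-fed mice. With ethanol, 3 rose and 1 fell in control mice, with Slco2a1 (0.50), Abcg2 (0.41) and, falling by 0.26, Tmem30a named. In IMC-treated mice 3 rose and 2 fell, with Abcb1a (0.84) and Slc22a18 (0.44) rising and Slco1a4 and Tmem30a falling by 0.72 and 0.41. Of all genes, 6.33% rose and 5.54% fell with ethanol in control mice, and 7.86% rose and 8.57% fell in IMC-treated mice. The counts of this list differ from these shares by few genes, and nothing particular to the list is read from them.

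Among the nuclear receptors and signals known to control bile acid transporters, 15 of 16 were tested. Hnf4a, a hepatocyte master regulator, rose with IMC in both diets (0.71 and 0.62) and was the only one of the list to pass in pair-fed mice. In ethanol-fed mice 3 rose, Nr1h4 (0.41) among them, and Ppara fell by 0.50. With ethanol 0 rose and 3 fell in control mice, Nr1h4 by 0.50 and Ppara by 0.48 among them. In IMC-treated mice 0 rose and 2 fell, Nr1i3 by 0.66 and Ppara by 0.54. Of all genes, 4.32% rose and 5.17% fell with IMC in pair-fed mice, and 10.4% rose and 11.1% fell in ethanol-fed mice. With ethanol 6.33% rose and 5.54% fell in control mice, and 7.86% rose and 8.57% fell in IMC-treated mice. The counts of this list differ from these shares by few genes. Abcb11 and Slc51b are known targets of Nr1h4. Abcb11 passed no test in these comparisons on the rescaled values. Slc51b, which has few reads, was 1.53 with ethanol in control mice and -1.27 with IMC in ethanol-fed mice. The part of Nr1h4 in either was not tested.

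Of 11 genes for scaffold and trafficking proteins of membrane transporters, Ezr and Slc9a3r1 fell by 1.11 and 0.68 with IMC in pair-fed mice and none rose. In ethanol-fed mice Hax1 rose (0.55) and Myo5b and Rdx fell by 0.34 and 0.26. With ethanol Myo5b rose in control mice (0.40) and Slc9a3r1 in IMC-treated mice (0.55), the only calls of the list in those comparisons. Of all genes, 4.32% rose and 5.17% fell with IMC in pair-fed mice, and 10.4% rose and 11.1% fell in ethanol-fed mice. With ethanol 6.33% rose and 5.54% fell in control mice, and 7.86% rose and 8.57% fell in IMC-treated mice. The counts of this list differ from these shares by few genes.

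The IMC counts of these lists moved by at most 2 genes in either direction when the values were used as deposited, quantile-normalized, or tested with edgeR or DESeq2. The ethanol counts depended on the scale. As deposited, the median gene was 0.19 log2 units higher in ethanol-fed mice. On that scale 9 of 20 other transporters rose and 0 fell with ethanol in control mice, and 2 of 15 receptors rose and 0 fell. Of all genes, 3000 were called there in either direction, against 1488 on the rescaled values. Their shares by direction on the deposited scale are not given here, so nothing particular to the lists is read from these counts. No direction is given for the receptor list as a whole.

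None of the Kupffer cell markers (5 of 5 tested) was called in any comparison, with summed values from 1993 to 5752. Of 5 sinusoidal endothelial markers, summing to 2155 to 3167, 1 rose with ethanol in IMC-treated mice. Of 5 stellate cell markers, summing to 2563 to 4622, 2 rose with ethanol in control mice, 2 rose and 1 fell with ethanol in IMC-treated mice, and 1 fell with IMC in ethanol-fed mice. The exocrine pancreas markers summed to 65.4 to 157, and of the 2 tested both fell with IMC in pair-fed mice. For these comparisons the shares of all genes called are those given above beside the lists. The part of these markers in the transporter values was not tested.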

How the data were processed

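Liver RNA was sequenced from strand-specific (TruSeq Directional) libraries of 16 mice, 4 per group. Per the labels and the study's methods, reads were trimmed and checked (Trim Galore, FastQC), aligned to mm10 (STAR) and normalized by upper quantile in edgeR; the counting tool is not given in the sources used here, and the labels and methods differ on whether reads were paired. The deposited signal values are read counts scaled by 1 factor per library, possibly set within each diet: 100% of values were whole reads to a tolerance of 0.01. The table held 27212 rows for 24082 genes, each used once. In library 15 of EtOH IMC 1 read is worth 1.01, so whole reads are least secure there and edgeR was also run without it.

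All 16 columns were rescaled by a median ratio over 13121 genes. Genes that reached 10 in 4 or more libraries were tested with limma 3.58.1 (R 4.3.3) on log2(value + 1), with group means and a mean-variance trend. Tests were two-sided, with p-values adjusted by Benjamini-Hochberg over 12537 genes at 0.05. Fold changes are on this scale and understate those of low genes. Alternatives were the deposited scale, quantile normalization, pseudocounts of 0.1 and 5, other filters, no trend, only the compared libraries, edgeR 4.0.16, DESeq2 1.42.0 and each library left out. On the recovered reads edgeR's quasi-likelihood test called 1170 genes for IMC in pair-fed and 2799 in ethanol-fed mice, 117 for their difference, and 1547 and 2027 for ethanol in control and IMC-treated mice. The code was tested on simulated data. No transporter was below the filter, so no test for such genes was needed. Exon lengths came from GENCODE, which held 24026 of the gene IDs.

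The transporters and the gene lists were chosen with earlier results of these data known. All 10 transporters are described; of each list, the 2 largest rises and falls among called genes of each simple comparison are named. The alternative without library 15 was added after seeing the data. Human samples and the study's other readouts were not analysed here.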

Additional observations from a re-analysis of the deposited data

Results flagged for a closer look

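Within a group of 4 libraries, a value was singled out where its gap to the nearest other library, as a share of the group's range, was above Dixon's 95% critical value. This held for 5 of the 40 group and gene pairs, where chance gives about 1 in 20. Slc10a2 was at 401 in library 12 of Pair control and at 71.2 in library 11 of EtOH IMC, each the highest of its group. Slco1a1 was at 434 in library 16 of Pair control and at 186 in library 2 of Pair IMC. Slco1b2 was lowest in library 15 of EtOH IMC, at 15353, where the other libraries of the group were at 16310.0 or above.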

How the results depend on the processing

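No paired analysis was possible because the groups share no replicate numbers. Of 1648 transporter effects recomputed under the alternatives, 1549 kept their direction and their side of the threshold, 29 lost the call, 33 gained it and 37 changed sign, all of the last without a call in either analysis. The cause of each change was not tested.

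The number of genes called changed by more than 1.5 times in these cases. For IMC in pair-fed mice it was 691 with only the libraries of the comparison, against 1189. For the difference between diets it was 80 without the filter, 82 without the trend, 340 with DESeq2 and 72 with edgeR without library 15, against 139. For ethanol it was 3000 in control and 3624 in IMC-treated mice on the deposited scale, against 1488 and 2060, and 1352 in IMC-treated mice with edgeR without library 15. Transporters called numbered 5 for IMC in ethanol-fed mice with quantile normalization and with DESeq2 (against 3), 1 for the difference with DESeq2 (against 0) and 2 for ethanol in control mice with a mean of at least 100 (against 4), a filter that leaves fewer transporters to test.

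Leaving out 1 library at a time, IMC in pair-fed mice called 0 to 2 transporters and 537 to 1443 genes, with 2 transporters without library 16 of Pair control, 0 without library 2, 4 or 6 of Pair IMC, and the fewest genes without library 4 (537) or 6 (543). The difference between diets called 0 to 1 transporters, with 1 (Abcc4) without library 16 or library 11, and 54 to 164 genes; the gene count moved by more than 1.5 times without any 1 of 11 libraries (1, 2, 3, 5, 6, 7, 8, 12, 13, 14 or 15) and was lowest without library 5. Ethanol called 803 to 1595 genes in control mice (803 without library 5, 974 without library 14) and 1368 to 2213 in IMC-treated mice (1368 without library 15).

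Effects that changed sign were these, none of them called where the sign was changed. Slco1a1 with IMC in pair-fed mice was -0.43 with edgeR (TMM, with or without library 15) and with DESeq2 and -0.46 with upper-quartile edgeR, and ranged from -0.025 to 1.34 over libraries left out, the highest of these being called (adjusted p = 0.0321, without library 16). On the deposited scale, ethanol in control mice gave 0.16 for Slco1a1, 0.047 for Slco1b2, 0.18 for Abcb4 and 0.16 for Abcc2, and in IMC-treated mice 0.064 for Slc10a1, 0.081 for Abcb11 and 0.019 for Abcb4. Abcb4 with ethanol in control mice was 0.011 with edgeR (with or without library 15), 0.0067 with DESeq2 and 0.031 with upper-quartile edgeR. Slc10a2 with IMC in ethanol-fed mice was 0.072 with edgeR without library 15, and the difference for Slco1b2 was 0.031 with quantile normalization. Over libraries left out, the ranges were -0.15 to 0.027 for Abcc3 and -0.63 to 0.016 for Slc10a2 with IMC in pair-fed mice, -0.53 to 0.11 for Slc10a2 with IMC in ethanol-fed mice, -0.16 to 0.54 for Slc10a2 and -0.61 to 0.75 for Slco1a1 in the difference, and -0.081 to 0.095 for Abcb4, -0.50 to 0.86 for Slco1a1 and -0.12 to 0.066 for Abcc2 with ethanol in control mice. On the deposited scale 8 of 40 group levels moved by more than their SD. Depth limits Slc51b most, at 1 to 18 reads a library.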
